A study of Mus musculus with 27 samples.

Results

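The comparison was between immortalized neural stem cell lines labelled p53 mutant and normal neural stem cells (NSCs), measured on microarrays. Its 8 arrays, of 27 in the series, were chosen by their labels: 6 p53 mutant lines (lines 3, 28, 31, 59, 95 and 116, 1 array each) and 2 normal NSC arrays, which are labelled wild type (WT). The series also holds 4 immortalized lines labelled p53 WT (lines 119, 120, 123 and 331), which are set beside the mutant lines here, and tumor and subcutaneous tissue arrays, not used here. All samples are mouse. The labels give the SCID strain CB17/ICR-Prkdcscid/IcrCrl as host strain on every array, cultures included. They do not give the strain or number of donor animals, the p53 alteration, or how the lines were immortalized, so mutant p53 and immortalization cannot be told apart against the NSCs. Differences of the immortalized WT lines from the same NSC arrays are therefore given beside those of the mutant lines for part of the genes. These are the largest differences, some lists, some p53 targets and some other genes. Each line was measured once. The labels call the arrays biological replicates and do not say whether the 2 NSC arrays came from separate cultures or animals, so a p-value here reflects only how far these particular arrays vary.

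Neural stem cells divide, express transcription factors such as Sox2 and radial glial proteins such as nestin, and give rise to neurons, astrocytes and oligodendrocytes. The tumor suppressor p53 is a transcription factor that switches on genes for cell cycle arrest, DNA repair and cell death when DNA is damaged or oncogenes are active, and its loss is common in glioma. Cells in culture that lose neural traits can take up mesenchymal ones, such as a contractile actin cytoskeleton and a fibrous extracellular matrix, a programme known from epithelial-mesenchymal transition (EMT).

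Values are log2 expression levels, and differences are mutant lines minus NSCs on the log2 scale, so that 1 is a 2-fold difference. A gene is called higher or lower where the limma adjusted p is under 0.05, errors of differences are standard errors, and every adjusted p is from limma with adjustment over all 19937 genes. The 8 arrays had median gene levels between 7.18 and 7.27. Correlations across genes were 0.964 to 0.986 between mutant lines, 0.914 to 0.927 between a mutant line and an NSC array, and 0.992 between the NSC arrays. The median SD of a gene was 0.164 over the mutant lines and 0.095 over the NSC arrays.

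The NSC label was set against 6 stem cell markers. The intermediate filament Vim lay between 12.91 and 13.14 in the mutant lines (median 12.98), against 12.82 and 12.92 in the NSC arrays, and Nes, which encodes nestin, lay between 7.96 and 10.39 in the mutant lines (median 9.73), against 9.78 and 9.79 in the NSC arrays. Neither passed the test, with 0.12 ± 0.09 (adjusted p = 0.453) for Vim and -0.34 ± 0.55 (adjusted p = 0.777) for Nes. Nes overlapped between the groups and was lowest in line 116. The other markers were lower in every mutant line than in both NSC arrays. Sox2, a transcription factor that keeps neural cells undifferentiated, lay between 8.36 and 9.01 in the mutant lines (median 8.67), against 9.80 and 9.56 in the NSC arrays, a difference of -0.99 ± 0.17 (adjusted p = 0.00496). Prom1, a membrane glycoprotein used to sort neural stem cells, differed by -1.96 ± 0.15 (adjusted p = 3.28e-05), and the glutamate transporter Slc1a3 by -3.65 ± 0.25 (adjusted p = 1.8e-05). Fabp7, the brain fatty acid binding protein of radial glia, lay between 5.68 and 9.40 in the mutant lines (median 5.92), against 13.15 and 13.15 in the NSC arrays and differed by -6.69 ± 0.89 (adjusted p = 0.00105). Line 116 was highest, while the other 5 lines were at 6.09 or below. The mutant-line level of Prom1 lay in the lowest 25% of gene means, so this difference is a lower bound. With NSC replicate 1 left out, the call of Sox2 (-0.87) ended. Trp53 and the p53 target Cdkn1a were not analysed here, so the p53 label itself was not checked on its own transcript.

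Calls were made for 3084 of 19937 genes (15.5%). In the mutant lines 1352 of them were higher (6.78% of all genes) and 1732 lower (8.69%). The median difference over all genes was -0.006. At least a 2-fold difference was seen for 516 of the higher and 743 of the lower genes, and at least 16-fold for 25 and 40. The groups did not overlap for 5908 genes (29.6%), the mutant lines lying above both NSC arrays for 14% of genes and below them for 15.6%. A level under 6.16 in the mutant lines or 6.21 in the NSCs, the lowest 25% of gene means, was not taken as shown above background. By that measure 83 of the higher genes were low in NSCs alone and 273 of the lower genes in the mutant lines alone, and their differences are lower bounds. Another 121 called genes were low in both groups. A level above this cut is not thereby shown above background. The skeletal muscle genes Myod1 and Ckm had means of 7.34 and 7.69 in the mutant lines and 7.41 and 7.71 in the NSCs. Other low values given below can therefore be background too. Examples are S100a6 in the NSCs, Olig1, Olig2 and Cdh20 in the mutant lines, and Gfap in both groups. The number of NSC arrays limits these counts: leaving out NSC replicate 1 gave 1374 calls, 541 of them higher, and leaving out NSC replicate 2 gave 1393, 446 of them higher.

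The 12 largest increases and the 12 largest decreases were picked among called genes whose groups do not overlap. That their groups lie apart is therefore not a result. Anxa1, Ptgs2 and S100a6 led the 12 largest increases. Anxa1, a calcium-dependent membrane protein that dampens inflammation, lay between 11.82 and 13.07 in the mutant lines (median 12.56), against 6.05 and 5.67 in the NSC arrays, a difference of 6.64 ± 0.27 (adjusted p = 4.83e-07) or 99.6-fold. Ptgs2, the inducible cyclooxygenase that starts prostaglandin synthesis, lay between 11.02 and 12.78 in the mutant lines (median 12.24), against 5.56 and 6.12 in the NSC arrays, a difference of 6.28 ± 0.40 (adjusted p = 1.07e-05). S100a6, a calcium-binding protein of motile and dividing cells, lay between 12.20 and 12.61 in the mutant lines (median 12.48), against 6.16 and 6.30 in the NSC arrays, a difference of 6.23 ± 0.12 (adjusted p = 1e-08). For all 3 genes the lowest mutant line stood far above the higher NSC array. Acta2, the smooth muscle actin of contractile cells, lay between 12.47 and 13.12 in the mutant lines (median 12.84), against 7.20 and 7.11 in the NSC arrays, a difference of 5.67 ± 0.16 (adjusted p = 7.15e-08). Thbs1, a matricellular glycoprotein that activates TGF-beta, lay between 12.06 and 12.75 in the mutant lines (median 12.41), against 7.41 and 7.44 in the NSC arrays, a difference of 4.98 ± 0.19 (adjusted p = 3.13e-07). Met, the receptor for hepatocyte growth factor, lay between 9.79 and 10.95 in the mutant lines (median 10.60), against 5.59 and 5.75 in the NSC arrays, a difference of 4.88 ± 0.26 (adjusted p = 2.86e-06). Met was the only receptor tyrosine kinase among the 12 largest increases. The other increases of this size were in Myof, a membrane repair protein (5.21 ± 0.15), Fgf7, a fibroblast growth factor (4.93 ± 0.86), Akr1c14, an aldo-keto reductase (4.89 ± 0.36), Mgp, an inhibitor of matrix calcification (4.70 ± 0.69), Plscr2, a scramblase family member (4.65 ± 0.32), and Inhba, the activin A subunit (4.57 ± 0.19). Fgf7 was at 8.55 in line 95 and between 11.57 and 12.31 in the other 5 lines, while Mgp spread from 9.50 in line 95 to 12.65 in line 28. The NSC levels of Anxa1, Ptgs2, Myof, Akr1c14, Met, Plscr2 and Inhba lay in the lowest 25% of gene means, so these differences are lower bounds. When NSC replicate 1 was omitted, the call of Fgf7 (4.81) ended. When NSC replicate 2 was omitted, the call of Fgf7 (5.05) ended.

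Gpm6a, Fabp7 and Gria2 led the 12 largest decreases, and Fabp7 (-6.69 ± 0.89) is described above with the stem cell markers. Gpm6a, a neuronal membrane glycoprotein of growing processes, lay between 5.36 and 5.82 in the mutant lines (median 5.61), against 12.53 and 12.27 in the NSC arrays, a difference of -6.81 ± 0.14 (adjusted p = 1e-08). Gria2, a subunit of AMPA-type glutamate receptors, lay between 4.34 and 4.68 in the mutant lines (median 4.52), against 11.17 and 10.83 in the NSC arrays, a difference of -6.48 ± 0.12 (adjusted p = 1e-08). Rtn1, a reticulon of the endoplasmic reticulum in neural cells, lay between 5.81 and 6.25 in the mutant lines (median 5.91), against 11.49 and 11.40 in the NSC arrays, a difference of -5.51 ± 0.12 (adjusted p = 1.77e-08). All 6 lines were below both NSC arrays for these 3 genes, as the choice of genes required. Ptprz1, a receptor phosphatase of glial progenitors, lay between 4.58 and 8.34 in the mutant lines (median 5.84), against 12.38 and 12.44 in the NSC arrays, a difference of -6.39 ± 0.80 (adjusted p = 0.000767), and line 59 alone was above 8. Stox2, a winged-helix protein, was spread widely as well, at 8.15 in line 95 and between 4.73 and 6.31 in the other lines, with a difference of -5.16 ± 0.78 (adjusted p = 0.00206). Gatm, which makes the creatine precursor guanidinoacetate, differed by -5.56 ± 0.24, and Sparcl1, an astrocyte matricellular protein, by -5.12 ± 0.16. The remaining members of the 12 largest decreases were Mdga2, a neuronal adhesion protein (-5.61 ± 0.10), Rgs7, a regulator of G protein signalling (-5.51 ± 0.11), Adgrb3, an adhesion G protein-coupled receptor of synapses (-5.05 ± 0.12), and Lrrn1, a neuronal leucine-rich repeat protein (-5.05 ± 0.19). The mutant-line levels of Gpm6a, Gria2, Ptprz1, Mdga2, Gatm, Rgs7, Rtn1, Stox2, Adgrb3 and Lrrn1 lay in the lowest 25% of gene means, so these differences are lower bounds.

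The 4 immortalized p53 WT lines were tested against the same 2 NSC arrays, in a fit of the 12 cell arrays with 3 group means, and 2706 genes (13.6%) were called. Both comparisons share the NSC arrays, so their values are set side by side with no measure of likeness. For Anxa1 the difference from NSCs was 6.64 ± 0.27 in the mutant lines and 6.56 ± 0.26 in the WT lines, and for Gpm6a it was -6.81 ± 0.14 in the mutant lines and -6.80 ± 0.15 in the WT lines. Over the 12 largest increases, the difference lay between 4.57 and 6.64 in the mutant lines and between 3.93 (Akr1c14) and 6.56 (Anxa1) in the WT lines. Over the 12 largest decreases, it lay between -6.81 and -5.05 in the mutant lines and between -7.15 (Fabp7) and -4.28 (Sparcl1) in the WT lines. All 24 genes passed the test in the WT lines too, with Mgp at the highest adjusted p (0.00802). The median difference from NSCs over the neural adhesion list was -1.53 in the mutant lines and -1.63 in the WT lines. In mutant and WT lines it was -1.20 and -1.36 over radial glia and astrocyte genes, -0.82 and -0.83 over cholesterol genes, 1.14 and 1.23 over contractile and actin genes, and 0.58 and 1.65 over matricellular genes. Some genes called in the mutant lines and described below did not pass the test in the WT lines. Among them were Mest, Ankrd1, Igfbp4, Lifr, Il18, Lgr5 and Ccnd2. Mest differed by -4.88 in the mutant and -2.75 in the WT lines (adjusted p = 0.128 in the WT lines). Ankrd1 differed by 4.23 and 2.575 (adjusted p = 0.109 in the WT lines). In mutant and WT lines the difference was -1.90 and -0.18 for Igfbp4, -1.95 and -0.315 for Lifr and -1.86 and -0.39 for Il18. It was -1.59 and -0.44 for Lgr5 and -1.93 and -0.85 for Ccnd2. None of these genes was called between mutant and WT lines. The differences of the mutant lines from NSCs described here are therefore not shown to be particular to lines labelled p53 mutant.

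**Figure D1:**
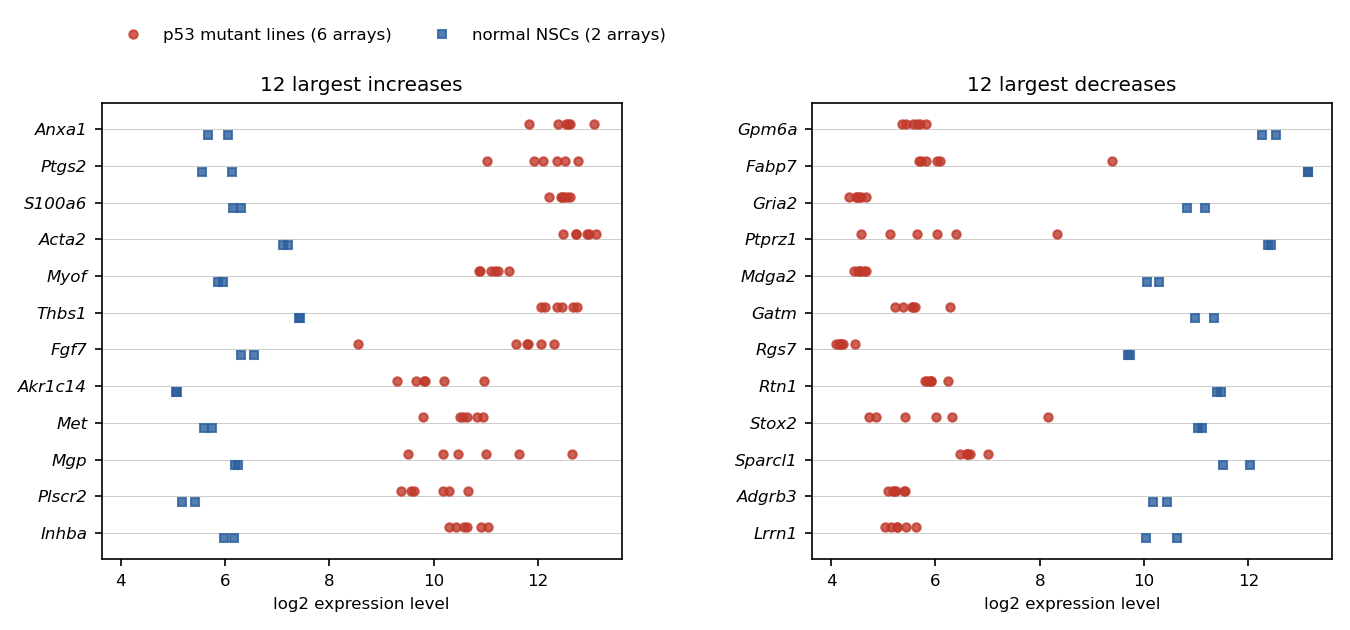
Log2 expression level (x axis) of the 12 genes with the largest increases (left) and the 12 with the largest decreases (right), 1 point per array, with p53 mutant lines as red circles above normal NSCs as blue squares. The genes were picked among those whose groups do not overlap. Fgf7, Fabp7, Ptprz1 and Stox2 have 1 line apart from the other 5. These points are at 8.55 in line 95, 9.40 in line 116, 8.34 in line 59 and 8.15 in line 95.

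Gene lists of 44 cell types, pathways and families held 1220 genes, of which 1151 were measured; 151 were called higher and 215 lower. In each list, the share of called members is to be read against 6.78% of all genes higher and 8.69% lower, and the median difference against -0.006. Lists are described by counts and medians alone, with no test of the list. The lists and their members were chosen with earlier results of these data known. Their shares and ranks are therefore not independent of these data.

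**Figure D2:**
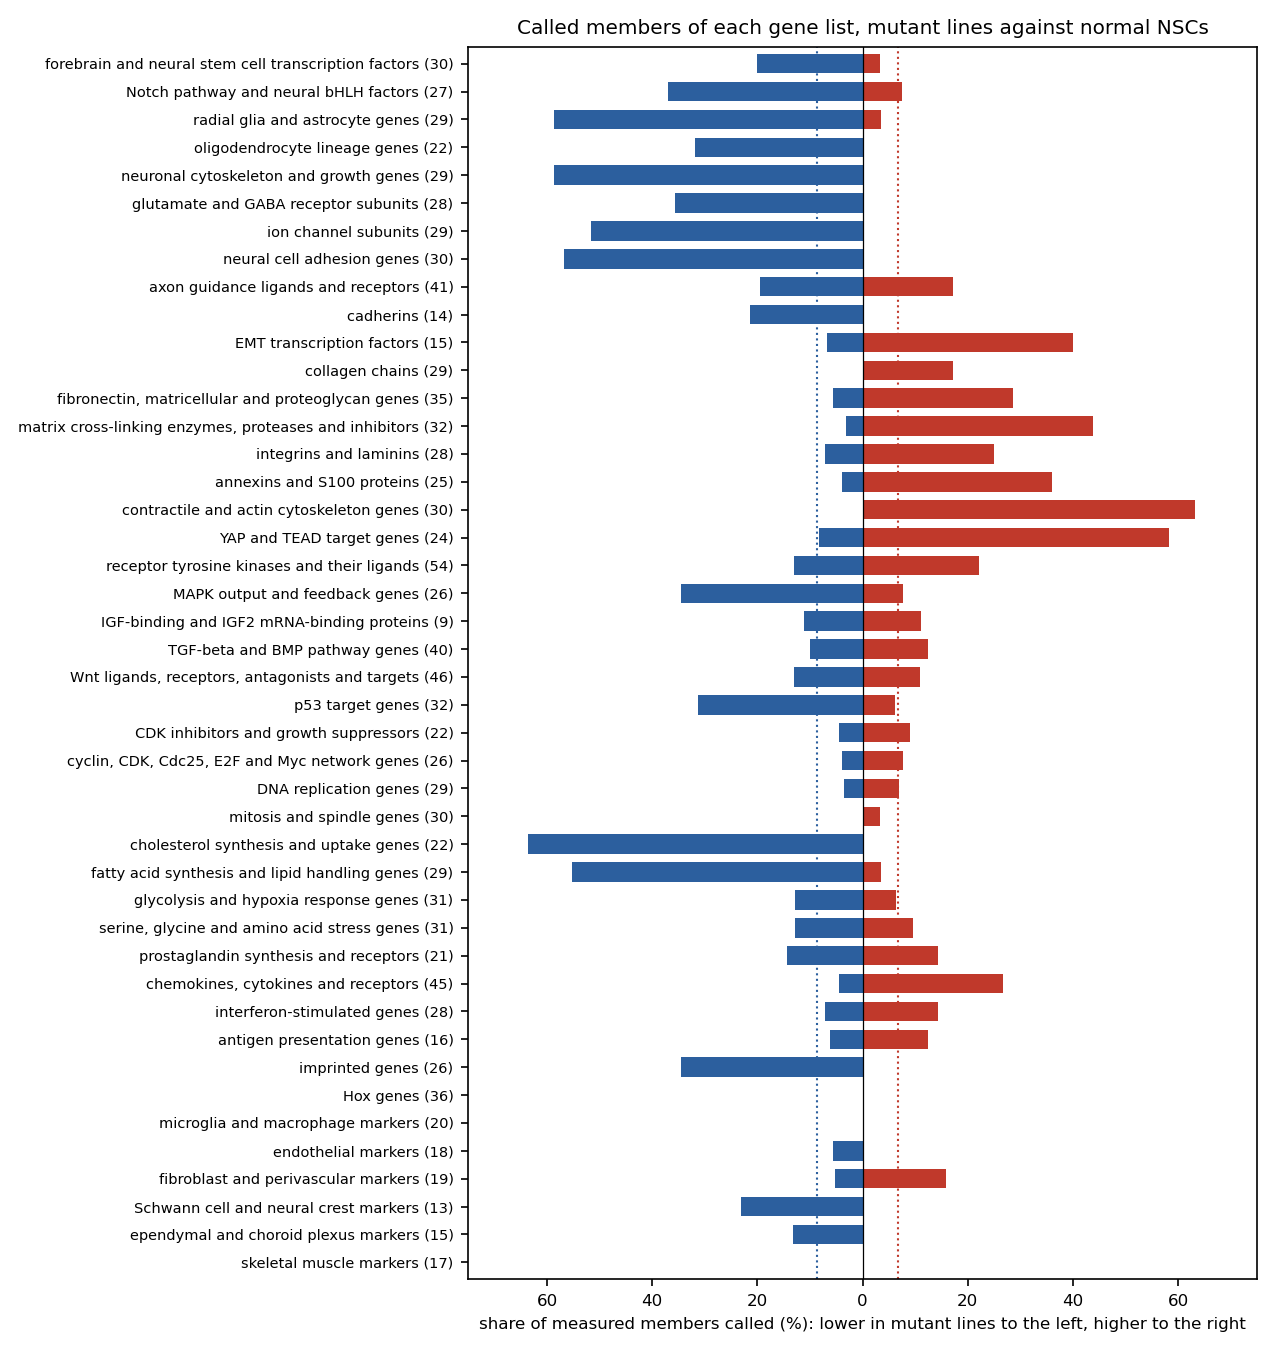
Share of the measured members of each gene list (rows, number measured in brackets) called higher in the p53 mutant lines (red, right) or lower (blue, left) against normal NSCs, in percent. Dotted lines mark the shares over all genes, 6.78% higher and 8.69% lower. The bars reach furthest for the actin list (63.3% higher) and the cholesterol list (63.6% lower). The lists were chosen with earlier results of these data known.

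Transcription factors of the forebrain and of neural stem cells were mostly not called. Of 30 measured, 1 was higher and 6 were lower (20%, median difference -0.09). Nfia, a driver of the switch from neuron to glia production, lay between 7.29 and 9.57 in the mutant lines (median 8.39), against 11.25 and 11.13 in the NSC arrays, a difference of -2.92 ± 0.51 (adjusted p = 0.00473). Nr2e1, an orphan nuclear receptor that keeps adult neural stem cells dividing, differed by -1.79 ± 0.43 (adjusted p = 0.0216), and Sox9, which maintains neural stem cells and astrocytes, by -1.13 ± 0.14 (adjusted p = 0.000775). The POU factor Pou3f4 differed by -1.64 ± 0.12 (adjusted p = 3.04e-05). The member that rose was Nr2f2, an orphan nuclear receptor of ventral forebrain and of mesenchyme, which lay between 8.82 and 10.63 in the mutant lines (median 10.25), against 7.03 and 7.06 in the NSC arrays, a difference of 3.02 ± 0.41 (adjusted p = 0.00123). In the Notch pathway and the basic helix-loop-helix (bHLH) factors, 2 of 27 were higher and 10 lower (37%, median -0.27). Olig1 and Olig2, which specify oligodendrocyte precursors, had the deepest falls. Olig2 lay between 5.98 and 6.38 in the mutant lines (median 6.26), against 10.08 and 9.63 in the NSC arrays, a difference of -3.65 ± 0.15 (adjusted p = 5.42e-07), and Olig1 differed by -3.83 ± 0.12 (adjusted p = 1.15e-07). Among the receptors, Notch1 and Notch2 moved in opposite directions. Notch1, the main receptor of neural stem cells, lay between 7.53 and 8.19 in the mutant lines (median 7.84), against 8.98 and 8.70 in the NSC arrays, a difference of -0.97 ± 0.19 (adjusted p = 0.00817), and Notch2 lay between 8.55 and 9.36 in the mutant lines (median 8.92), against 7.26 and 6.98 in the NSC arrays, a difference of 1.82 ± 0.19 (adjusted p = 0.000271). Hey2, a transcriptional repressor switched on by Notch, differed by 2.22 ± 0.42 (adjusted p = 0.00685). Sox9, Pou3f4 and Notch1 were picked with their values already seen. The NSC level of Hey2 and the mutant-line level of Pou3f4 lay in the lowest 25% of gene means, so these differences are lower bounds. After NSC replicate 1 was set aside, the neural transcription factors had 2 lower members and the Notch and bHLH list had 1 higher and 6 lower members, and the calls of Nfia (-2.85), Nr2e1 (-1.67), Hey2 (2.06) and Notch1 (-0.82) ended. After NSC replicate 2 was set aside, the neural transcription factors had 3 lower members and the Notch and bHLH list had 1 higher member, and the calls of Nfia (-2.98), Nr2e1 (-1.92) and Hey2 (2.38) ended. After line 59 was set aside, the neural transcription factors had 2 higher members. Leaving line 116 out, the neural transcription factors had 3 higher members.

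Among genes of radial glia and astrocytes, most calls were lower. Of 29 measured, 17 were lower (58.6%) and 1 higher, with a median difference of -1.20. Besides Fabp7, Ptprz1 and Sparcl1, the fallen members included Aldoc, a brain aldolase that marks astrocytes, which lay between 6.71 and 7.02 in the mutant lines (median 6.96), against 11.24 and 11.18 in the NSC arrays, a difference of -4.28 ± 0.10 (adjusted p = 2.45e-08). The astrocyte glutamate transporters Slc1a3 and Slc1a2 differed by -3.65 ± 0.25 and -2.17 ± 0.13, and glutamine synthetase (Glul) by -1.71 ± 0.25. Gfap, the filament of mature astrocytes, lay between 6.10 and 6.72 in the mutant lines (median 6.35), against 6.17 and 6.51 in the NSC arrays, a difference of 0.03 ± 0.16 (adjusted p = 0.946) with overlapping groups. The member that rose was Gja1, the gap junction protein connexin of astrocytes and many mesenchymal cells, which lay between 10.34 and 11.22 in the mutant lines (median 10.75), against 9.25 and 9.39 in the NSC arrays, a difference of 1.44 ± 0.21 (adjusted p = 0.00154). Of 22 oligodendrocyte lineage genes 7 were lower (31.8%) and 0 higher (median -0.14). Lhfpl3, a tetraspan protein of oligodendrocyte precursors, lay between 6.98 and 7.84 in the mutant lines (median 7.18), against 11.59 and 10.58 in the NSC arrays, a difference of -3.83 ± 0.28 (adjusted p = 2.36e-05), and Ugt8a, which makes the myelin lipid galactosylceramide, differed by -1.52 ± 0.18 (adjusted p = 0.000475). Pdgfra, the growth factor receptor of oligodendrocyte precursors, varied widely between lines and was not called. It lay between 6.39 and 11.41 in the mutant lines (median 8.57), against 8.73 and 7.23 in the NSC arrays, with line 95 highest and line 116 lowest, and the difference was 0.51 ± 1.11 (adjusted p = 0.845). The mutant-line level of Ugt8a lay in the lowest 25% of gene means, so this difference is a lower bound. Omitting line 116, the oligodendrocyte list had 1 higher member.

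In 4 lists of neuronal genes, receptor subunits, channels and adhesion molecules, every call was lower. Lower members numbered 17 of 29 neuronal cytoskeleton and growth genes (58.6%, median -0.53), 10 of 28 glutamate and GABA receptor subunits (35.7%, median -0.38), 15 of 29 ion channel subunits (51.7%, median -0.63) and 17 of 30 neural adhesion genes (56.7%, median -1.53). Gap43, a protein of growing axons, lay between 7.22 and 8.29 in the mutant lines (median 7.73), against 11.68 and 11.67 in the NSC arrays, a difference of -3.96 ± 0.29 (adjusted p = 2.75e-05). Gabrg1, a GABA-A receptor subunit, lay between 4.32 and 4.82 in the mutant lines (median 4.61), against 9.61 and 9.47 in the NSC arrays, a difference of -4.95 ± 0.14 (adjusted p = 6.66e-08). For both genes all 6 lines were below both NSC arrays, as for 15.6% of all genes. Both were named for large falls, so this is not a separate result. Kcnip3, a calcium-binding partner of potassium channels, differed by -3.90 ± 0.22 (adjusted p = 4.68e-06), and the inward rectifier Kcnj16 by -3.71 ± 0.14 (adjusted p = 3.76e-07). Tubb3, the tubulin used as a marker of young neurons, had a difference of the opposite sign that did not pass the test. It lay between 7.41 and 9.07 in the mutant lines (median 8.27), against 7.22 and 7.12 in the NSC arrays, a difference of 1.16 ± 0.39 (adjusted p = 0.0794) with all 6 lines above the NSC arrays. The mutant-line levels of Gabrg1 and Kcnj16 lay in the lowest 25% of gene means, so these differences are lower bounds. Leaving NSC replicate 1 out, the neuronal list had 10 lower members. When line 31 was omitted, the neuronal list had 1 higher member, and Tubb3 (1.35) passed the test. Leaving line 59 out, the receptor subunits had 1 higher member.

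Axon guidance genes changed in both directions, 7 higher (17.1%) and 8 lower (19.5%) of 41, with a median of 0.03. Slit2, a repulsive ligand for Robo receptors, lay between 8.87 and 11.52 in the mutant lines (median 10.16), against 6.31 and 6.16 in the NSC arrays, a difference of 3.84 ± 0.57 (adjusted p = 0.00199), and Efna5, an ephrin ligand, differed by 2.17 ± 0.49 (adjusted p = 0.0169). The ephrin receptor Epha5 lay between 5.34 and 5.49 in the mutant lines (median 5.39), against 9.44 and 8.98 in the NSC arrays, a difference of -3.82 ± 0.12 (adjusted p = 1.15e-07). Sema6d, a transmembrane semaphorin, differed by -3.61 ± 0.88 (adjusted p = 0.0239), and its level in line 95 (9.68) was the highest of the 6 lines. Of 14 cadherins, 3 were lower (21.4%) and 0 higher (median 0.06). Cdh20 lay between 6.12 and 6.26 in the mutant lines (median 6.19), against 10.32 and 10.24 in the NSC arrays, a difference of -4.09 ± 0.08 (adjusted p = 1e-08), and Cdh4, the retinal cadherin, differed by -2.95 ± 0.12 (adjusted p = 4.86e-07). Cdh2, the neural cadherin that epithelial cells gain in EMT and which was chosen after its values were seen, lay between 10.84 and 11.72 in the mutant lines (median 11.35), against 10.98 and 10.77 in the NSC arrays, a difference of 0.44 ± 0.25 (adjusted p = 0.318). The mutant-line level of Epha5 lay in the lowest 25% of gene means, so this difference is a lower bound. Omitting NSC replicate 1, the guidance list had 3 higher and 5 lower members, and the calls of Efna5 (2.00) and Sema6d (-3.63) ended. Leaving NSC replicate 2 out, the guidance list had 3 higher and 5 lower members, and the calls of Efna5 (2.35) and Sema6d (-3.60) ended. After line 3 was set aside, the guidance list had 4 higher members. After line 31 was set aside, the guidance list had 4 higher members.

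Of 15 transcription factors of EMT, 6 rose (40%) and 1 fell (6.67%), with a median of 1.00. Snai2, a zinc finger repressor of epithelial genes, lay between 8.28 and 11.79 in the mutant lines (median 10.07), against 6.78 and 6.65 in the NSC arrays, a difference of 3.42 ± 0.75 (adjusted p = 0.0149). Runx1, a factor of blood and mesenchymal cells, lay between 8.95 and 10.01 in the mutant lines (median 9.59), against 6.97 and 6.43 in the NSC arrays, a difference of 2.86 ± 0.29 (adjusted p = 0.000206), and Twist1, a bHLH factor of mesoderm and neural crest, differed by 2.32 ± 0.25 (adjusted p = 0.000259). All 6 lines were above both NSC arrays for these 3 genes, as for 14% of all genes. They were named for large rises, so this is not a separate result. Zeb1, another EMT repressor that neural stem cells express too, was the member that fell. It lay between 10.60 and 11.27 in the mutant lines (median 11.06), against 12.11 and 11.98 in the NSC arrays, a difference of -1.07 ± 0.20 (adjusted p = 0.00688). Twist1 was chosen after its values were seen. The NSC level of Twist1 lay in the lowest 25% of gene means, so this difference is a lower bound. If NSC replicate 1 was dropped, the EMT factors had 2 higher and 0 lower members, and the calls of Snai2 (3.49) and Zeb1 (-1.0) ended. Omitting NSC replicate 2, the EMT factors had 3 higher and 0 lower members, and the calls of Snai2 (3.36) and Zeb1 (-1.13) ended.

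Most calls among matrix genes were higher. Of 29 collagen chains 5 were higher (17.2%) and 0 lower (median 0.41). Col12a1, a fibril-associated chain, lay between 10.15 and 11.98 in the mutant lines (median 10.92), against 7.52 and 7.17 in the NSC arrays, a difference of 3.69 ± 0.42 (adjusted p = 0.000394), and Col8a1, a network-forming chain, differed by 3.40 ± 0.26 (adjusted p = 3.24e-05). The chains of the main fibrillar collagen, Col1a1 and Col1a2, differed by 1.52 ± 0.47 (adjusted p = 0.0618) and 2.68 ± 0.80 (adjusted p = 0.053), with Col1a2 at 7.35 in line 95 and at 9.39 or more in the other lines. Fibronectin, matricellular and proteoglycan genes had 10 higher (28.6%) and 2 lower of 35 (median 0.58). Fn1, fibronectin, lay between 12.36 and 13.17 in the mutant lines (median 12.85), against 8.55 and 8.39 in the NSC arrays, a difference of 4.33 ± 0.19 (adjusted p = 9.24e-07), and Sparc, a collagen-binding matricellular protein, differed by 1.70 ± 0.14 (adjusted p = 6.74e-05). The members that fell were the brain proteoglycans Ncan (-3.79 ± 0.13) and Bcan (-3.04 ± 0.14), which neural cells deposit around themselves. Of 32 cross-linking enzymes, proteases and inhibitors, 14 were higher (43.8%) and 1 lower (median 0.99). Lox, the lysyl oxidase that cross-links collagen and elastin, lay between 7.99 and 12.03 in the mutant lines (median 10.73), against 5.90 and 6.38 in the NSC arrays, a difference of 4.15 ± 1.07 (adjusted p = 0.0294). Its levels were lowest in lines 95 and 59. P4ha3, a collagen prolyl hydroxylase subunit, lay between 8.79 and 10.41 in the mutant lines (median 9.71), against 5.48 and 6.11 in the NSC arrays, a difference of 3.8 ± 0.41 (adjusted p = 0.000304). The protease inhibitors Timp2 and Timp4 moved apart, by 3.02 ± 0.17 (adjusted p = 3.62e-06) and -4.09 ± 0.14 (adjusted p = 1.86e-07). Col1a1, Col1a2, Fn1, Sparc and Timp2 were picked with their values already seen. The NSC levels of Lox and P4ha3 and the mutant-line level of Timp4 lay in the lowest 25% of gene means, so these differences are lower bounds. Without NSC replicate 1, the collagens had 2 higher members and the matrix enzymes had 7 higher members, and the call of Lox (3.91) ended. If NSC replicate 2 was dropped, the collagens had 2 higher members and the matrix enzymes had 7 higher members, and the call of Lox (4.39) ended. Leaving line 3 out, the call of Lox (4.04) ended. Leaving line 31 out, the call of Lox (4.08) ended. Omitting line 59, Col1a1 (1.66) passed the test. If line 95 was dropped, Col1a1 (1.64) and Col1a2 (3.15) passed the test.

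Integrins and laminins, the receptors and basement membrane proteins that tie cells to matrix, had 7 members higher (25%) and 2 lower (7.14%) of 28 (median 0.30). Lamb1, a laminin beta chain, lay between 9.94 and 10.24 in the mutant lines (median 10.03), against 7.85 and 7.81 in the NSC arrays, a difference of 2.23 ± 0.11 (adjusted p = 1.23e-06), and Itga3, a laminin-binding integrin, differed by 2.60 ± 0.45 (adjusted p = 0.00458). Itga4, which binds fibronectin and vascular adhesion molecules, lay between 5.60 and 7.19 in the mutant lines (median 5.93), against 9.32 and 9.23 in the NSC arrays, a difference of -3.15 ± 0.36 (adjusted p = 0.000394), and Itgb8, which activates latent TGF-beta, differed by -1.41 ± 0.16 (adjusted p = 0.000374). Calcium-binding annexins and S100 proteins were higher for 9 of 25 (36%) and lower for 1 (median 0.48). Next to Anxa1 and S100a6, Anxa2 and Anxa5 differed by 3.33 ± 0.20 and 3.41 ± 0.17, both picked with their values already seen. S100a4, a protein of motile fibroblasts, lay between 9.56 and 12.22 in the mutant lines (median 11.42), against 6.59 and 7.02 in the NSC arrays, a difference of 4.25 ± 0.75 (adjusted p = 0.0049). S100a16 was the member that fell, by -1.11 ± 0.15 (adjusted p = 0.000934). The mutant-line level of Itga4 lay in the lowest 25% of gene means, so this difference is a lower bound. With NSC replicate 1 left out, the integrins and laminins had 2 higher members, and the calls of Itga3 (2.65) and S100a4 (4.04) ended. Without NSC replicate 2, the integrins and laminins had 3 higher members and the annexins and S100 proteins had 2 lower members, and the call of Itga3 (2.55) ended. After line 28 was set aside, the annexins and S100 proteins had 2 lower members. If line 59 was dropped, the annexins and S100 proteins had 2 lower members.

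Contractile and actin cytoskeleton genes had the largest share of higher members of the 44 lists, 19 of 30 (63.3%), and none were lower (median 1.14). Cnn2, a calponin that binds actin, lay between 9.87 and 10.22 in the mutant lines (median 10.10), against 6.46 and 6.01 in the NSC arrays, a difference of 3.85 ± 0.14 (adjusted p = 2.24e-07). Actn1, the actin cross-linker alpha-actinin, differed by 3.28 ± 0.09 (adjusted p = 6.42e-08), the myosin light chain Myl9 by 3.63 ± 0.46 (adjusted p = 0.000831), and transgelin (Tagln) by 2.33 ± 0.51 (adjusted p = 0.0152). Actn1 spanned 10.52 to 10.77 over the 6 lines, while Myl9 spanned 9.69 to 11.79. Actn1, Myl9 and Tagln were picked with their values already seen. Serum response factor, which drives many contractile genes, binds the CArG box. Promoters were those of RefSeq (GRCm38.p6), 250 bases before to 50 after the gene start. Of 26 list members with a promoter, 5 held a CArG box on either strand (19.2%), against 1.81% of 27025 genes. They were Acta1, Cnn2, Lima1, Myl9 and Vcl, of which Acta1 and Lima1 were not called. Among the 16 called members with a promoter, 3 held the box. The list was gathered as contractile genes. A share above that of all genes is therefore not a result of these data. The promoter of Cnn2 (chr10:79988350-79988649, plus strand), whose difference was the largest of the 3 called members among them, is shown with the CArG box in capitals, 56 bases before the gene start.
Cnn2: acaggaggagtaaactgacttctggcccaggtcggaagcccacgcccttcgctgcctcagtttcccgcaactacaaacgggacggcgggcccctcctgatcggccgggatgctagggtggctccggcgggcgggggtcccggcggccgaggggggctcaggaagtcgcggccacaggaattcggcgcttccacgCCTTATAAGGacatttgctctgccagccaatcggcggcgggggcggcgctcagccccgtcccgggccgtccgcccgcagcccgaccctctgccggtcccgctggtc
A match of letters is a description and not evidence of binding. When NSC replicate 1 was omitted, the call of Tagln (2.10) ended. With NSC replicate 2 left out, the call of Tagln (2.56) ended.

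Target genes of YAP and TEAD, the transcription factors held back by the Hippo pathway and released when cells spread on stiff matrix, were higher for 14 of 24 (58.3%) and lower for 2 (8.33%), with a median of 1.00. Ccn1, a matricellular protein, lay between 12.14 and 12.76 in the mutant lines (median 12.46), against 8.07 and 7.80 in the NSC arrays, a difference of 4.55 ± 0.16 (adjusted p = 2.57e-07). Ankrd1, a nuclear and sarcomeric ankyrin repeat protein, lay between 8.72 and 11.25 in the mutant lines (median 10.60), against 5.84 and 6.08 in the NSC arrays, a difference of 4.23 ± 0.66 (adjusted p = 0.00266). Ccn2, the connective tissue growth factor, differed by 2.47 ± 0.51 (adjusted p = 0.0106) and was chosen after its values were seen. All 6 lines stood above both NSC arrays for these 3 genes, as for 14% of all genes. The choice of genes with large rises makes this likely, so it is not a separate result. Lats2, the kinase that restrains YAP and is itself a YAP target, differed by 1.37 ± 0.15 (adjusted p = 0.000275). The members that fell were Fjx1 (-2.39 ± 0.42, adjusted p = 0.00506), a Golgi kinase relative, and Amotl1 (-0.76 ± 0.13, adjusted p = 0.00442), a junction protein that binds YAP. The TEAD motif GGAATG was found on either strand in 8 of 18 list members with a promoter (44.4%), against 16.6% of 27025 genes. They were Ajuba, Amotl2, Ankrd1, Axl, Ccn1, Crim1, Lats2 and Ptpn14, and 7 of the 11 called members with a promoter held it. The list was gathered as targets of YAP and TEAD. A share above that of all genes is therefore not a result of these data. The promoters of the members with the largest increases, Ccn1 (chr3:145649936-145650235, minus strand) and Ankrd1 (chr19:36119795-36120094, minus strand), are shown with the motif in capitals, 103 bases before the gene start in Ccn1, where it lies on the opposite strand, and 210 and 123 bases before it in Ankrd1.
Ccn1: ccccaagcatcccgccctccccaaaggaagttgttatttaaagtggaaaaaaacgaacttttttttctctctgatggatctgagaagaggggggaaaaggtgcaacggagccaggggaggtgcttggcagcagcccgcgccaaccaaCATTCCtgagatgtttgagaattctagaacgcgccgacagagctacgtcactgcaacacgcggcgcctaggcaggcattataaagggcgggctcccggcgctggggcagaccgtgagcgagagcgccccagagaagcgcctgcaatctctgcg
Ankrd1: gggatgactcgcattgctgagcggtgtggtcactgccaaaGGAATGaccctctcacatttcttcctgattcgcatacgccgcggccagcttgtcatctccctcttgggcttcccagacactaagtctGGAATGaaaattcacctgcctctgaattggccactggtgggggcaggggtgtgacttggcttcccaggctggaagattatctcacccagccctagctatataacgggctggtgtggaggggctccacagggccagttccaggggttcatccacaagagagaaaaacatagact
The NSC level of Ankrd1 lay in the lowest 25% of gene means, so this difference is a lower bound. After NSC replicate 1 was set aside, the YAP list had 8 higher and 0 lower members, and the calls of Fjx1 (-2.32), Amotl1 (-0.67) and Ccn2 (2.30) ended. When NSC replicate 2 was omitted, the YAP list had 8 higher and 1 lower members, and the calls of Fjx1 (-2.46) and Ccn2 (2.64) ended.

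Receptor tyrosine kinases and their ligands had 12 higher (22.2%) and 7 lower (13%) of 54, with a median of 0.49. Beside Met and Fgf7, the higher genes included Csf1, the macrophage growth factor (3.40 ± 0.26, adjusted p = 3.15e-05), and Pdgfrb, the platelet-derived growth factor receptor of perivascular and mesenchymal cells (3.19 ± 0.32, adjusted p = 0.000199), both picked with their values already seen. Ntrk2, the receptor for brain-derived neurotrophic factor, lay between 5.33 and 5.89 in the mutant lines (median 5.47), against 9.39 and 9.30 in the NSC arrays, a difference of -3.84 ± 0.15 (adjusted p = 3.99e-07). Fgf1, an acidic fibroblast growth factor, differed by -2.09 ± 0.30 (adjusted p = 0.00146). Egfr, whose ligand keeps neural stem cells dividing in culture, lay between 8.13 and 10.86 in the mutant lines (median 9.35), against 11.40 and 11.34 in the NSC arrays, a difference of -2.0 ± 0.57 (adjusted p = 0.0451), with line 95 highest and line 28 lowest. Of 26 genes of MAP kinase output and feedback, downstream of these receptors, 9 were lower (34.6%) and 2 higher (median -0.61). The Sprouty inhibitors Spry4 and Spry2 differed by -2.91 ± 0.35 (adjusted p = 0.000548) and -2.59 ± 0.26 (adjusted p = 0.000194), the phosphatase Dusp6 by -1.47 ± 0.28 (adjusted p = 0.00688), and the ETS factors Etv1 and Etv5 by -3.19 ± 0.79 (adjusted p = 0.0256) and -1.91 ± 0.31 (adjusted p = 0.00323). Spry4 lay between 6.93 and 8.44 in the mutant lines (median 7.20), against 10.45 and 10.14 in the NSC arrays, and line 95 was highest. The members that rose were Fosl1, an AP-1 subunit (1.5 ± 0.30, adjusted p = 0.00937), and Ier3, an immediate early gene (0.85 ± 0.24, adjusted p = 0.0418). Spry2, Dusp6 and Etv5 were picked with their values already seen. The mutant-line level of Ntrk2 lay in the lowest 25% of gene means, so this difference is a lower bound. Leaving NSC replicate 1 out, the receptor kinase list had 7 higher members and the MAPK list had 0 higher and 4 lower members, and the calls of Fosl1 (1.33), Ier3 (0.75), Etv1 (-3.24), Egfr (-1.97) and Dusp6 (-1.29) ended. After NSC replicate 2 was set aside, the receptor kinase list had 7 higher members and the MAPK list had 0 higher and 5 lower members, and the calls of Fosl1 (1.67), Ier3 (0.96), Etv1 (-3.14) and Egfr (-2.03) ended. Omitting line 3, the MAPK list had 1 higher member, and the calls of Ier3 (0.80) and Egfr (-2.05) ended. Leaving line 28 out, the MAPK list had 1 higher member, and the call of Ier3 (0.80) ended. Omitting line 31, the MAPK list had 1 higher member, and the calls of Ier3 (0.87) and Egfr (-1.93) ended. Without line 59, the calls of Ier3 (0.88) and Egfr (-1.90) ended. Without line 95, the MAPK list had 1 higher member, and the call of Ier3 (0.79) ended. If line 116 was dropped, the MAPK list had 5 higher members, and the call of Egfr (-2.05) ended.

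A list of IGF-binding proteins, which control access of insulin-like growth factors to their receptor, and of the IGF2 mRNA-binding proteins Igf2bp1 and Igf2bp3 had 1 of 9 higher and 1 lower (11.1% each, median -0.03). Igfbp7 lay between 8.34 and 10.69 in the mutant lines (median 9.82), against 7.13 and 7.72 in the NSC arrays, a difference of 2.26 ± 0.51 (adjusted p = 0.0162). Igfbp4 lay between 7.20 and 9.29 in the mutant lines (median 7.23), against 9.71 and 9.28 in the NSC arrays, a difference of -1.90 ± 0.52 (adjusted p = 0.0388), and line 95 alone reached the range of the NSC arrays. Igfbp2 and Igfbp3, picked with their values already seen, were also highest in line 95, at 10.98 and 11.30, and their differences of -3.16 ± 1.00 (adjusted p = 0.0673) and -2.79 ± 0.99 (adjusted p = 0.0979) did not pass. In the TGF-beta and BMP pathways, 5 of 40 were higher (12.5%) and 4 lower (10%, median 0.22). Next to Inhba, Fstl1, a secreted follistatin-like protein, lay between 10.43 and 11.47 in the mutant lines (median 10.96), against 7.41 and 7.52 in the NSC arrays, a difference of 3.50 ± 0.26 (adjusted p = 3.13e-05). The ligand Bmp7 lay between 6.67 and 6.91 in the mutant lines (median 6.80), against 9.93 and 9.58 in the NSC arrays, a difference of -2.95 ± 0.11 (adjusted p = 3.16e-07), and the receptor Bmpr1b differed by -1.75 ± 0.43 (adjusted p = 0.0241). Wnt ligands, receptors, antagonists and targets had 5 higher (10.9%) and 6 lower (13%) of 46 (median 0.09). The Frizzled receptors moved apart, Fzd6 by 3.05 ± 0.51 (adjusted p = 0.00362) and Fzd7 by 1.08 ± 0.30 (adjusted p = 0.0385), against Fzd3 by -2.04 ± 0.37 (adjusted p = 0.00575). Lgr5, a Wnt-enhancing receptor of stem cells, differed by -1.59 ± 0.29 (adjusted p = 0.00573). Omitting NSC replicate 1, the list of IGF-binding and IGF2 mRNA-binding proteins had 0 higher and 0 lower members, the TGF-beta and BMP list had 1 lower member and the Wnt list had 1 higher member, and the calls of Igfbp7 (1.97), Igfbp4 (-1.69), Bmpr1b (-1.62), Fzd7 (1.04), Fzd3 (-1.94) and Lgr5 (-0.99) ended. Leaving NSC replicate 2 out, the list of IGF-binding and IGF2 mRNA-binding proteins had 0 higher and 0 lower members, the TGF-beta and BMP list had 1 lower member and the Wnt list had 3 higher members, and the calls of Igfbp7 (2.55), Igfbp4 (-2.12), Bmpr1b (-1.89), Fzd7 (1.13) and Fzd3 (-2.13) ended. If line 3 was dropped, the list of IGF-binding and IGF2 mRNA-binding proteins had 0 lower members, and the calls of Igfbp4 (-1.83) and Fzd7 (1.14) ended. Omitting line 28, the list of IGF-binding and IGF2 mRNA-binding proteins had 0 lower members, and the calls of Igfbp4 (-1.86) and Fzd7 (1.11) ended. If line 31 was dropped, the list of IGF-binding and IGF2 mRNA-binding proteins had 0 lower members, and the call of Igfbp4 (-1.84) ended. With line 59 left out, the TGF-beta and BMP list had 8 higher members, and the call of Igfbp4 (-1.83) ended, and Igfbp2 (-3.50) passed the test. With line 95 left out, the list of IGF-binding and IGF2 mRNA-binding proteins had 4 lower members, and the call of Fzd7 (0.99) ended, and Igfbp2 (-3.61) and Igfbp3 (-3.35) passed the test. Without line 116, the list of IGF-binding and IGF2 mRNA-binding proteins had 0 lower members, and the call of Igfbp4 (-1.83) ended.

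Genes that p53 switches on were lower in the mutant lines for 10 of 32 measured (31.2%) and higher for 2 (6.25%), with a median of -0.29. Trp53inp1, a stress protein of autophagy and cell death, lay between 6.68 and 7.70 in the mutant lines (median 7.52), against 10.88 and 10.91 in the NSC arrays, a difference of -3.53 ± 0.26 (adjusted p = 2.34e-05). Eda2r, a death receptor relative, lay between 5.42 and 6.24 in the mutant lines (median 5.78), against 8.82 and 9.47 in the NSC arrays, a difference of -3.33 ± 0.24 (adjusted p = 2.49e-05). Ccng1, a cyclin that recruits a phosphatase to Mdm2, lay between 10.78 and 11.41 in the mutant lines (median 11.15), against 12.48 and 12.67 in the NSC arrays, a difference of -1.42 ± 0.16 (adjusted p = 0.000378). In all 3 genes the 6 lines were below both NSC arrays, as for 15.6% of all genes. These genes were named for large falls, so this is not a separate result. The other members that fell included Ephx1, an epoxide hydrolase (-1.64 ± 0.15, adjusted p = 8.89e-05), Zmat3, an RNA-binding protein (-1.37 ± 0.13, adjusted p = 0.00014), Ei24, an autophagy protein (-1.17 ± 0.11, adjusted p = 0.000104), the nuclease Aen (-0.85 ± 0.20, adjusted p = 0.0188), the spindle protein Ckap2 (-0.85 ± 0.16, adjusted p = 0.00778), Phlda3, which restrains Akt (-0.73 ± 0.13, adjusted p = 0.00495), and the sugar reductase Dcxr (-0.52 ± 0.15, adjusted p = 0.0435). The members that rose were Pltp, a phospholipid transfer protein (1.15 ± 0.26, adjusted p = 0.0155), and Abcb1a, a drug efflux pump (0.53 ± 0.14, adjusted p = 0.0332). Mdm2, the ubiquitin ligase that p53 induces and that degrades p53, lay between 8.99 and 9.32 in the mutant lines (median 9.14), against 9.46 and 9.39 in the NSC arrays, a difference of -0.29 ± 0.10 (adjusted p = 0.102). Apart from Trp53inp1, Eda2r, Pltp, Abcb1a and Mdm2, these targets were named after their values were seen. The p53 WT lines differed from the same 2 NSC arrays as well, with 11 of the 32 targets called lower and 2 higher (median -0.33), against 7.2% of all genes called lower and 6.38% higher in that comparison. In WT lines minus NSCs, Trp53inp1 differed by -3.11 ± 0.27 (adjusted p = 8.36e-06) and Eda2r by -3.33 ± 0.25 (adjusted p = 1.91e-06). The same difference was -2.02 ± 0.24 (adjusted p = 0.000119) for Ephx1, -1.89 ± 0.20 (adjusted p = 4.32e-05) for Zmat3, -1.08 ± 0.17 (adjusted p = 0.00109) for Ccng1 and -0.91 ± 0.13 (adjusted p = 0.000454) for Ei24. The lower levels of these targets were thus measured in lines of either p53 label. None of the 32 targets was called between mutant and WT lines, against 0.0401% of all genes. An unadjusted limma p under 0.05 was reached by 3 of the 32 targets and by 1864 of 19937 genes. These shares are about the same, so the targets do not stand out from all genes. Of these 3 targets, none of which passed the test, Zmat3 differed by 0.52 ± 0.15 in mutant minus WT lines (adjusted p = 0.312). Ccng1 differed by -0.34 ± 0.13 (adjusted p = 0.417) and Ei24 by -0.26 ± 0.10 (adjusted p = 0.408). The median of mutant minus WT lines over the targets was 0.03, and the 95% intervals of this difference for the 12 genes called against NSCs lay within -0.88 and 0.84. A test that was not passed does not show that the levels were alike. The mutant-line level of Eda2r lay in the lowest 25% of gene means, so this difference is a lower bound. If NSC replicate 1 was dropped, the p53 targets had 0 higher members, and the calls of Pltp (1.16), Abcb1a (0.36), Aen (-0.81), Ckap2 (-0.79) and Dcxr (-0.68) ended. Omitting NSC replicate 2, the p53 targets had 0 higher and 6 lower members, and the calls of Pltp (1.13), Abcb1a (0.69), Aen (-0.89), Ckap2 (-0.90), Dcxr (-0.36) and Phlda3 (-0.67) ended. Without line 3, the call of Dcxr (-0.50) ended. Without line 31, the p53 targets had 1 higher member, and the calls of Abcb1a (0.52) and Dcxr (-0.49) ended. When line 95 was omitted, the call of Dcxr (-0.48) ended. With line 116 left out, the call of Dcxr (-0.52) ended.

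**Figure D3:**
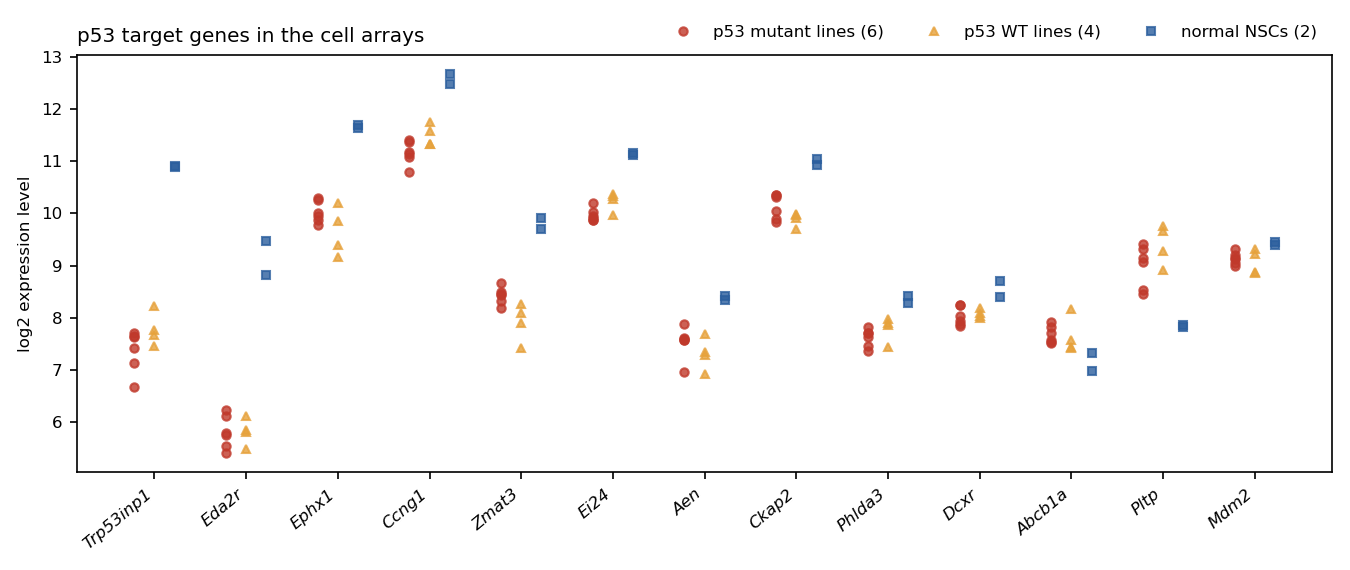
Log2 expression level (y axis) of the 12 p53 target genes called between mutant lines and NSCs, and of Mdm2, with 1 point per array: p53 mutant lines (red circles), p53 WT lines (orange triangles) and normal NSCs (blue squares). For Trp53inp1 the mutant lines reach 7.70 and the NSC arrays are at 10.88 and 10.91, with the WT lines between 7.46 and 8.23.

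Few cell cycle genes were called, and no list among them had more than 3 called members. CDK inhibitors and growth suppressors had 2 higher (9.09%) and 1 lower (4.55%) of 22 (median 0.03), and a list of cyclins, CDKs, Cdc25 phosphatases, E2F factors and the Myc network 2 higher (7.69%) and 1 lower (3.85%) of 26 (median -0.01). Cdk6, a kinase of entry into the cell cycle, lay between 9.94 and 10.86 in the mutant lines (median 10.34), against 9.03 and 8.64 in the NSC arrays, a difference of 1.53 ± 0.25 (adjusted p = 0.00315). Ccnd2, the D-type cyclin of neural progenitors, lay between 8.58 and 10.45 in the mutant lines (median 10.35), against 11.76 and 11.89 in the NSC arrays, a difference of -1.93 ± 0.50 (adjusted p = 0.0307), with line 28 lowest. The CDK inhibitor Cdkn2d differed by -0.61 ± 0.09 (adjusted p = 0.00235), the Hippo kinase Lats1 by 0.39 ± 0.11 (adjusted p = 0.0401), and the E2F repressor E2f7 by 0.58 ± 0.14 (adjusted p = 0.0211). Cdkn2a, the locus of a CDK inhibitor and of a p53 activator, lay between 6.89 and 7.61 in the mutant lines (median 7.48), against 6.91 and 7.10 in the NSC arrays, a difference of 0.38 ± 0.18 (adjusted p = 0.223). DNA replication genes had 2 higher (6.9%) and 1 lower (3.45%) of 29 (median 0.23), the licensing factor Cdt1 (0.62 ± 0.09, adjusted p = 0.00196), thymidylate synthase (Tyms, 0.54 ± 0.14, adjusted p = 0.0332) and the ribonucleotide reductase subunit Rrm2 (-0.84 ± 0.18, adjusted p = 0.013). Of 30 mitosis genes 1 was higher (3.33%) and 0 lower (median 0.11), namely Anln, a scaffold of the cleavage furrow (1.20 ± 0.19, adjusted p = 0.00318). Mki67, the marker of cycling cells, lay between 10.32 and 11.45 in the mutant lines (median 10.91), against 11.03 and 10.89 in the NSC arrays, a difference of -0.07 ± 0.23 (adjusted p = 0.897). Without NSC replicate 1, the CDK inhibitor list had 1 higher member, the list of cyclins and Myc network genes had 0 lower members and the replication list had 1 higher and 0 lower members, and the calls of Lats1 (0.40), Ccnd2 (-1.99), Tyms (0.55) and Rrm2 (-0.78) ended. If NSC replicate 2 was dropped, the CDK inhibitor list had 1 higher member, the list of cyclins and Myc network genes had 0 higher and 0 lower members, the replication list had 1 higher and 0 lower members and the mitosis list had 0 higher members, and the calls of Lats1 (0.39), Cdk6 (1.33), E2f7 (0.42), Ccnd2 (-1.87), Tyms (0.54), Rrm2 (-0.90) and Anln (1.02) ended. With line 3 left out, the list of cyclins and Myc network genes had 2 lower members and the replication list had 1 higher member, and the call of Tyms (0.52) ended. If line 28 was dropped, the CDK inhibitor list had 2 lower members, the replication list had 1 higher member and the mitosis list had 2 higher members, and the call of Tyms (0.55) ended, and Cdkn2a (0.48) passed the test. With line 31 left out, the CDK inhibitor list had 1 higher member and the replication list had 1 higher member, and the calls of Lats1 (0.37) and Tyms (0.54) ended. When line 59 was omitted, the CDK inhibitor list had 1 higher member, and the call of Lats1 (0.37) ended. After line 95 was set aside, the CDK inhibitor list had 1 higher and 2 lower members and the list of cyclins and Myc network genes had 2 lower members, and the calls of Lats1 (0.40) and Tyms (0.54) ended. When line 116 was omitted, the CDK inhibitor list had 3 lower members, the list of cyclins and Myc network genes had 2 lower members, the replication list had 6 higher members and the mitosis list had 4 higher members, and the call of Lats1 (0.37) ended.

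Most calls among lipid synthesis genes were lower. Of 22 genes of cholesterol synthesis and uptake 14 were lower (63.6%) and 0 higher, with a median of -0.82. Hmgcs1, which makes the precursor of mevalonate, lay between 9.11 and 10.39 in the mutant lines (median 9.79), against 11.84 and 11.86 in the NSC arrays, a difference of -2.07 ± 0.27 (adjusted p = 0.000845). Dhcr7, the enzyme of the last step to cholesterol, lay between 7.49 and 8.08 in the mutant lines (median 7.86), against 9.87 and 9.55 in the NSC arrays, a difference of -1.86 ± 0.16 (adjusted p = 6.54e-05). Every line was below both NSC arrays for both enzymes, as for 15.6% of all genes. Both were named for the largest falls of the list, so this is not a separate result. Many genes of this pathway are driven by SREBP factors through sterol response elements. A share of such elements above that of all genes would therefore not be a result of these data. The letters TCACCCCAC of such an element occurred on either strand in 0.614% of 27025 promoters and in 1 of 17 list members with a promoter (5.88%), Hmgcs1 (chr13:119690101-119690400, plus strand), shown with the element in capitals, 137 bases before the gene start.
Hmgcs1: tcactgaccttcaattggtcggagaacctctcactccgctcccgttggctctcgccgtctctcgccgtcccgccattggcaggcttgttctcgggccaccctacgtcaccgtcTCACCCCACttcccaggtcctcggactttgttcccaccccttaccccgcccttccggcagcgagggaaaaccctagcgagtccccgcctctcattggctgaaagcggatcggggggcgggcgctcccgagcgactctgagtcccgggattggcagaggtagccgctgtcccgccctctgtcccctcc
Genes of fatty acid synthesis and lipid handling had 16 lower (55.2%) and 1 higher of 29 (median -0.86). Thrsp, a regulator of lipid synthesis, lay between 6.24 and 6.62 in the mutant lines (median 6.5), against 10.82 and 11 in the NSC arrays, a difference of -4.46 ± 0.12 (adjusted p = 6.66e-08). The acetyl-CoA synthetase Acss2 differed by -3.09 ± 0.14 (adjusted p = 9.78e-07) and the fatty acid synthase Fasn by -0.86 ± 0.18 (adjusted p = 0.0119), both picked with their values already seen. Fads3, a desaturase family member, was the gene that rose, by 2.74 ± 0.18 (adjusted p = 1.37e-05). With NSC replicate 1 left out, the cholesterol list had 8 lower members, and the call of Fasn (-0.70) ended. Without NSC replicate 2, the cholesterol list had 9 lower members.

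The other metabolic lists had calls in both directions. Glycolysis and hypoxia response genes had 2 higher (6.45%) and 4 lower (12.9%) of 31 (median 0.02), and serine, glycine and amino acid stress genes 3 higher (9.68%) and 4 lower (12.9%) of 31 (median 0.38). Ndrg1, a hypoxia-induced gene, differed by 1.85 ± 0.38 (adjusted p = 0.0113), the muscle enolase Eno3 by 1.56 ± 0.24 (adjusted p = 0.0026), and the oxygen sensor Egln3 by -2.0 ± 0.42 (adjusted p = 0.0116). Atf4 and Ddit3, transcription factors of the integrated stress response, differed by 0.98 ± 0.21 (adjusted p = 0.0133) and 0.97 ± 0.13 (adjusted p = 0.000893), and the lower amino acid genes included Gatm and Glul. Prostaglandin synthesis and receptor genes had 3 higher and 3 lower of 21 (14.3% each, median 0.14). Beside Ptgs2, the reductase Akr1b8 rose (4.15 ± 0.24, adjusted p = 5.25e-06). The prostaglandin D synthase Ptgds and the lipase Pla2g7 fell, with differences of -1.42 ± 0.10 (adjusted p = 2.61e-05) and -3.28 ± 0.16 (adjusted p = 1.63e-06). The NSC level of Akr1b8 and the mutant-line level of Pla2g7 lay in the lowest 25% of gene means, so these differences are lower bounds. When NSC replicate 1 was omitted, the glycolysis list had 1 higher member and the amino acid list had 1 higher member, and the calls of Ndrg1 (1.82), Egln3 (-2.15) and Atf4 (1.11) ended. With NSC replicate 2 left out, the glycolysis list had 1 higher member and the amino acid list had 1 higher member, and the calls of Ndrg1 (1.88), Egln3 (-1.84) and Atf4 (0.86) ended. Leaving line 95 out, the amino acid list had 5 higher members. After line 116 was set aside, the amino acid list had 5 higher members.

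Chemokines, cytokines and their receptors were higher for 12 of 45 (26.7%) and lower for 2 (4.44%), with a median of 0.38. Cxcl12, a chemokine that guides migrating cells, lay between 8.82 and 10.41 in the mutant lines (median 10.01), against 6.25 and 6.02 in the NSC arrays, a difference of 3.62 ± 0.42 (adjusted p = 0.000468). Osmr, the receptor chain for oncostatin M, lay between 7.75 and 10.71 in the mutant lines (median 9.60), against 6.03 and 6.12 in the NSC arrays, a difference of 3.43 ± 0.65 (adjusted p = 0.00734), and Ccl2, a chemokine that draws monocytes and was chosen after its values were seen, differed by 3.03 ± 0.60 (adjusted p = 0.00886). The members that fell were Lifr, the leukaemia inhibitory factor receptor (-1.95 ± 0.46, adjusted p = 0.0199), and the cytokine Il18 (-1.86 ± 0.46, adjusted p = 0.024). Interferon-stimulated genes had 4 higher (14.3%) and 2 lower (7.14%) of 28 (median 0.04). Ifit2, an RNA-binding antiviral protein, differed by 1.59 ± 0.25 (adjusted p = 0.00255), the factor Irf1 by 1.16 ± 0.31 (adjusted p = 0.0339), the guanylate-binding protein Gbp3 by -1.88 ± 0.20 (adjusted p = 0.000296) and the nucleotide kinase Cmpk2 by -0.48 ± 0.10 (adjusted p = 0.0103). Antigen presentation genes had 2 higher (12.5%) and 1 lower (6.25%) of 16 (median 0.02). The class I light chain B2m lay between 12.22 and 12.76 in the mutant lines (median 12.53), against 11.21 and 11.23 in the NSC arrays, a difference of 1.29 ± 0.16 (adjusted p = 0.000588). The peptide loading factor Tapbp differed by 0.88 ± 0.17 (adjusted p = 0.00787) and the class II gene H2-Ab1 by -0.35 ± 0.07 (adjusted p = 0.0125). The NSC levels of Cxcl12 and Osmr and the mutant-line levels of Gbp3 and H2-Ab1 lay in the lowest 25% of gene means, so these differences are lower bounds. Both groups' levels of Cmpk2 lay in the lowest 25% of gene means, so neither group was shown above background there. After NSC replicate 1 was set aside, the cytokine list had 6 higher and 0 lower members, the interferon list had 1 higher and 1 lower members and the antigen presentation list had 1 higher and 0 lower members, and the calls of Osmr (3.39), Lifr (-1.73), Il18 (-1.77), Irf1 (1.30), Cmpk2 (-0.41), Tapbp (0.59), H2-Ab1 (-0.39) and Ccl2 (3.17) ended. When NSC replicate 2 was omitted, the cytokine list had 0 lower members, the interferon list had 2 higher members and the antigen presentation list had 0 lower members, and the calls of Osmr (3.48), Lifr (-2.18), Il18 (-1.95), Irf1 (1.01), H2-Ab1 (-0.31) and Ccl2 (2.90) ended. When line 3 was omitted, the call of Irf1 (1.07) ended. When line 31 was omitted, the call of Irf1 (1.16) ended. After line 59 was set aside, the call of Irf1 (1.14) ended.

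Imprinted genes, expressed from the copy of a single parent, fell for 9 of 26 (34.6%), and 0 rose (median -0.41). Mest, a paternally expressed hydrolase relative, lay between 5.90 and 8.75 in the mutant lines (median 7.36), against 12.28 and 12.27 in the NSC arrays, a difference of -4.88 ± 0.64 (adjusted p = 0.00101), with line 31 lowest and line 59 highest. Ndn, which encodes the growth suppressor necdin, lay between 5.54 and 6.49 in the mutant lines (median 5.83), against 8.77 and 9.36 in the NSC arrays, a difference of -3.18 ± 0.25 (adjusted p = 3.55e-05), and the zinc finger gene Peg3, chosen after its values were seen, differed by -2.87 ± 0.23 (adjusted p = 5.06e-05). The Hox genes, which mark position along the hindbrain and trunk, gave no call among 36 measured (median 0.000). Of them 2 had an unadjusted limma p under 0.05, which at least 15.5% of all genes had, since every called gene did. The mutant-line levels of Ndn and Peg3 lay in the lowest 25% of gene means, so these differences are lower bounds. Leaving line 59 out, the imprinted genes had 1 higher member.

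Markers of other cell types that a culture could hold were set beside these changes. No marker was called among 20 of microglia and macrophages (2 with an unadjusted limma p under 0.05, median 0.03) or 17 of skeletal muscle (1 with an unadjusted limma p under 0.05, median -0.01). At least 15.5% of all genes had such an unadjusted p, since every called gene did. Of the microglia markers, 11 were in the lowest 25% of gene means in the mutant lines and 12 in the NSCs, and their summed linear level was 1713 to 2051 in the mutant lines and 1745 to 1950 in the NSCs. Of 18 endothelial markers 1 was lower (5.56%, median -0.01), the receptor partner Ramp2 (-0.62 ± 0.17, adjusted p = 0.035). Of 15 ependymal and choroid plexus markers 2 were lower (13.3%, median -0.11), Rarres2 (-0.53 ± 0.10, adjusted p = 0.00865) and the cilium gene Rsph1 (-0.39 ± 0.11, adjusted p = 0.0443). Means of Ramp2, Rarres2 and Rsph1 were 6.95, 6.68 and 6.42 in the mutant lines and 7.57, 7.21 and 6.81 in the NSCs. All were below those of the muscle gene Ckm (7.69 and 7.71), so they were not shown above background. Schwann cell and neural crest markers had 3 of 13 lower (23.1%, median -0.02). Ednrb, the endothelin receptor of crest and glial cells, lay between 5.91 and 6.48 in the mutant lines (median 6.11), against 10.82 and 10.53 in the NSC arrays, a difference of -4.51 ± 0.17 (adjusted p = 3.2e-07). Of the fibroblast and perivascular markers, 3 of 19 were higher (15.8%) and 1 lower (median 0.21), and their summed linear level was 5340 to 11773 in the mutant lines and 3004 to 3356 in the NSCs. Cd34, a sialomucin of vascular and mesenchymal progenitors, lay between 9.09 and 11.50 in the mutant lines (median 10.73), against 6.39 and 6.59 in the NSC arrays, a difference of 4.10 ± 0.58 (adjusted p = 0.00146), while Thy1, a surface protein of neurons and fibroblasts, differed by -2.66 ± 0.17 (adjusted p = 9.61e-06). Whether other cells in the cultures account for part of these changes was not tested, and more cells of a type and more RNA per cell cannot be told apart. Leaving NSC replicate 1 out, the microglia markers had 1 lower member, the endothelial markers had 0 lower members and the ependymal markers had 0 lower members, and the calls of Ramp2 (-0.56), Rarres2 (-0.50) and Rsph1 (-0.38) ended. After NSC replicate 2 was set aside, the ependymal markers had 0 lower members, and the calls of Ramp2 (-0.67), Rarres2 (-0.55) and Rsph1 (-0.40) ended. After line 3 was set aside, the endothelial markers had 0 lower members and the ependymal markers had 1 lower member, and the calls of Ramp2 (-0.61) and Rsph1 (-0.39) ended. Without line 28, the fibroblast markers had 2 lower members. After line 31 was set aside, the ependymal markers had 1 lower member, and the call of Rsph1 (-0.36) ended. Omitting line 59, the endothelial markers had 2 lower members and the ependymal markers had 1 lower member, and the call of Rsph1 (-0.38) ended. Omitting line 95, the fibroblast markers had 5 higher members. Leaving line 116 out, the microglia markers had 1 higher member, the neural crest markers had 1 higher member and the ependymal markers had 1 lower member, and the call of Rsph1 (-0.37) ended.

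The 6 mutant lines differed among themselves in how far some lists had moved. For each list, the mean over its members of a line's level minus the NSC mean was taken as a description. Fatty acid, channel, adhesion and receptor lists varied little, the adhesion list lying between -1.95 in line 116 and -1.78 in line 95. The list of IGF-binding and IGF2 mRNA-binding proteins varied most, between -1.04 in line 28 and 0.12 in line 95. Matricellular genes lay between 0.75 in line 59 and 1.60 in line 28, and matrix enzymes between 0.63 in line 59 and 1.39 in line 116. The actin list was lowest in line 3 (1.24) and highest in line 116 (1.76). MAPK output and feedback genes were at -0.92 in line 116 and -0.19 in line 95, and cholesterol genes at -1.06 and -0.61 in the same lines. Line 116 stood below the other 5 lines for DNA replication genes (-0.26, against 0.20 to 0.32) and mitosis genes (-0.30, against 0.05 to 0.38). These means have 1 array each, so differences between lines carry no error and were not tested.

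**Figure D4:**
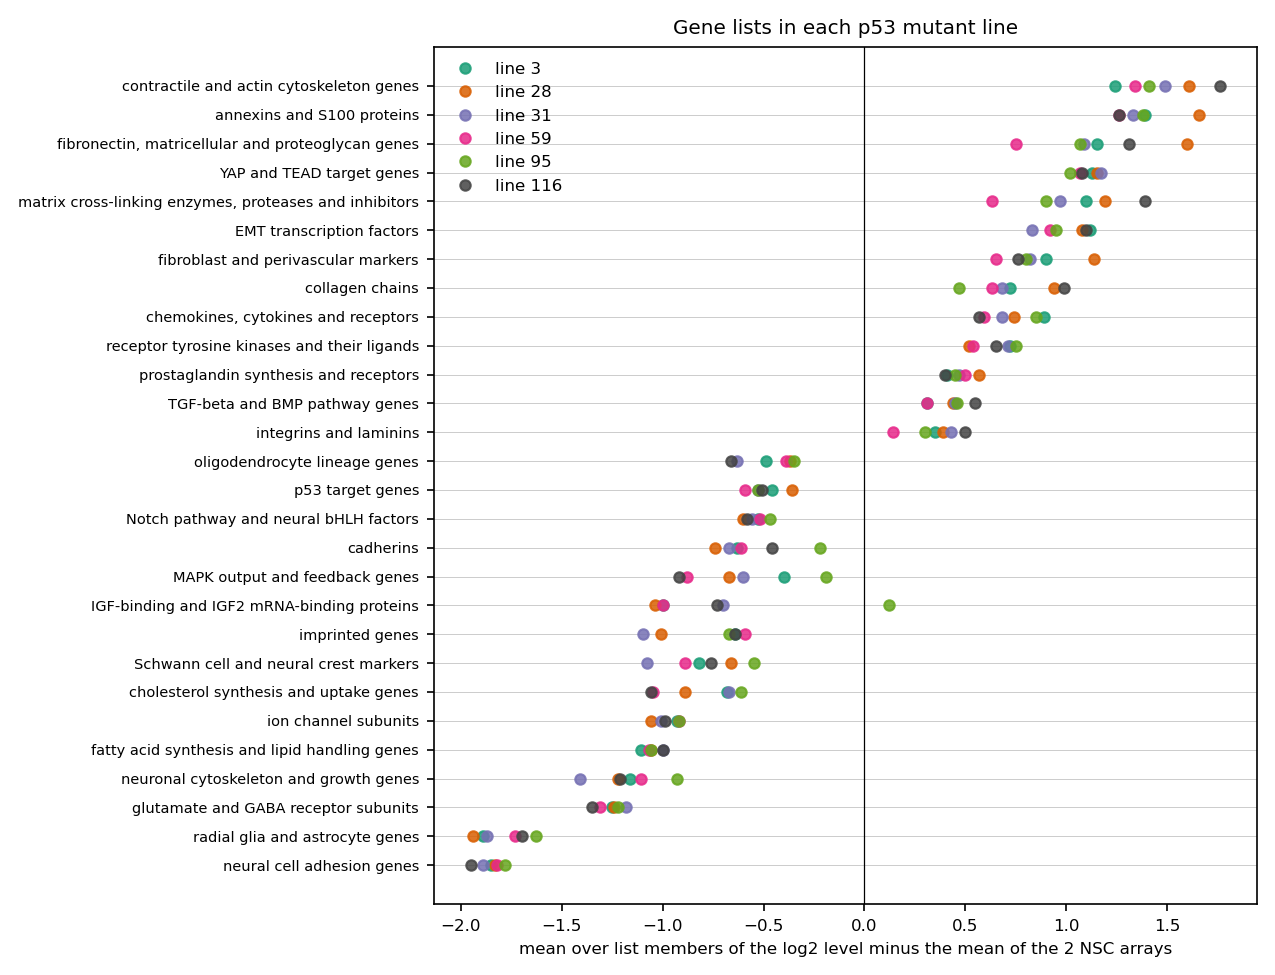
Mean over list members of the log2 level in each mutant line minus the mean of the 2 NSC arrays (x axis), for the lists with a mean of at least 0.5 in either direction in any line (rows), with 1 colour per line. Points of the adhesion list lie between -1.95 and -1.78, while those of the IGF-binding and IGF2 mRNA-binding proteins reach from -1.04 to 0.12, with line 95 to the right of the others.

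Single genes set each line apart, and these are given as values with no test. In line 116, Sfrp2, a secreted Wnt modulator, was at 12.88, while the other 5 mutant lines lay between 5.71 and 6.36 and the NSC arrays at 8.85 and 8.88. The same line was apart for the adhesion receptor Adgrl4 (10.01, others 5.30 to 6.13) and for Fndc1 (10.94, others 6.19 to 7.54), and was low for the collagen receptor kinase Ddr2 (6.87, others 9.0 to 10.08), the lysyl oxidase relative Loxl4 (6.44, others 8.67 to 9.43) and the phosphodiesterase Pde1a (6.38, others 8.41 to 10.42). Line 95 had high Cacng3, an AMPA receptor auxiliary subunit (9.31, others 5.17 to 5.45), and high Iqgap2, a scaffold protein (11.32, others 6.57 to 7.96). It also had Slitrk2, a synaptic adhesion protein, at 9.65 (others 5.80 to 6.56), near the NSC levels of 9.36 and 8.94, and was low for the receptor ligand Alkal1 (4.83, others 7.40 to 10.25). Line 31 had high Tnr, the neural matrix protein tenascin-R (10.12, others 6.10 to 6.34), Klhl1 (9.87, others 6.18 to 7.94) and Mpzl2 (7.89, others 5.56 to 6.32). It was low for the cell death protease Casp8 (5.18, others 8.42 to 10.43, NSCs 7.96 and 7.84), for the forkhead factor Foxc2 (6.16, others 7.49 to 9.80) and for the glutathione transferase Mgst1 (5.72, others 7.04 to 9.46).

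The remaining lines had genes of the same kind. Line 59 was low for Casd1, a sialic acid acetyltransferase (5.33, others 8.35 to 9.36), for the phosphodiesterase Pde3b (5.85, others 8.34 to 10.13) and for the mitochondrial carbonic anhydrase Car5b (6.76, others 8.98 to 10.08). It was high for Clca3a2 (7.35, others 5.09 to 5.36) and the interleukin receptor chain Il12rb2 (9.37, others 6.17 to 7.58). Line 28 was low for Fndc3c1 (6.14, others 9.88 to 12.12) and Lrch2 (4.97, others 7.97 to 8.79), both on the X chromosome, and for Tmem176b (7.75, others 10.14 to 11.26). It was high for the secreted carbonic anhydrase Car6 (8.68, others 5.91 to 6.21), for Glipr1 (10.92, others 7.35 to 8.5) and for Rhag, an ammonium channel of red cells (7.96, others 5.17 to 5.58). Line 3 was low for Pla2g4a, the phospholipase that frees arachidonic acid (6.63, others 9.84 to 11.36), for Apbb1ip (6.20, others 8.37 to 9.92) and for the glycosyltransferase B3galnt1 (6.29, others 8.43 to 9.90). It was high for Raet1d, a ligand of a natural killer cell receptor, at 9.35 (others 4.55 to 6.54, NSCs 9.19 and 8.87), for the heparanase Hpse (7.24, others 5.33 to 5.75) and for Asb5 (8.69, others 6.45 to 7.26). Of the genes with the widest gaps, Car5b (2.76 ± 0.72, adjusted p = 0.0315) and Loxl4 (2.76 ± 0.65, adjusted p = 0.0206) were called higher against NSCs, as was Fgf7 of line 95, and Ptprz1 of line 59 was called lower, both with the values given above. Omitting NSC replicate 1, the calls of Car5b (2.48) and Loxl4 (2.92) ended. Leaving NSC replicate 2 out, the calls of Car5b (3.04) and Loxl4 (2.60) ended. Leaving line 3 out, the call of Car5b (2.74) ended. With line 28 left out, the call of Car5b (2.74) ended. Leaving line 31 out, the call of Car5b (2.75) ended.

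**Figure D5:**
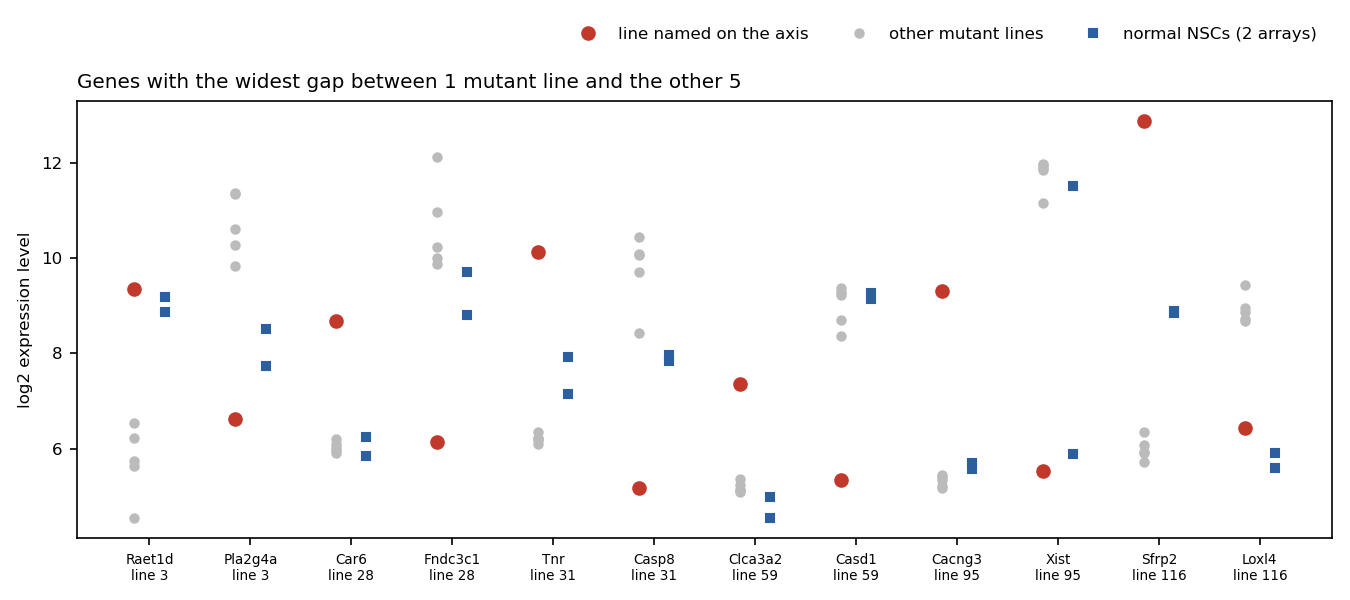
Log2 expression level (y axis) of the gene with the widest gap above and the gene with the widest gap below the other 5 mutant lines, for each line (x axis), with the named line in red, the other mutant lines in grey and the 2 normal NSC arrays as blue squares. The widest gaps are those of Sfrp2 in line 116 (12.88, others up to 6.36) and Xist in line 95 (5.53, others from 11.16).

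The mutant lines were also set directly against the 4 p53 WT lines, in a fit of the 12 cell arrays with 3 group means. The test called 8 of 19937 genes (0.0401%), with 1 higher in the mutant lines (0.00502%) and 7 lower (0.0351%), and 1864 had an unadjusted limma p under 0.05. Prkar2b, a regulatory subunit of protein kinase A, lay between 10.10 and 10.66 in the mutant lines (median 10.55), against 8.98, 9.54, 9.23 and 9.27 in the WT lines, with a difference of 1.23 ± 0.13 (adjusted p = 0.0106). It was above the NSC arrays (8.68 and 8.47) by 1.91 ± 0.15 (adjusted p = 4.35e-05) in the mutant lines. The groups did not overlap. Serpinb1a, an inhibitor of neutrophil proteases, lay between 6.32 and 8.02 in the mutant lines (median 7.38), against 9.11, 10.08, 9.87 and 11.57 in the WT lines, a difference of -2.99 ± 0.44 (adjusted p = 0.0496). Sema3d, a secreted semaphorin, lay between 5.05 and 5.95 in the mutant lines (median 5.64), against 8.36, 7.77, 8.05 and 10.01 in the WT lines, a difference of -2.96 ± 0.35 (adjusted p = 0.0129). Mutant-line levels of Sema3d were near the NSC levels of 5.99 and 5.72. The RNA-binding protein Igf2bp1 differed by -1.77 ± 0.26, the protease cathepsin K (Ctsk) by -1.33 ± 0.20, the carboxypeptidase Cpa6 by -1.27 ± 0.14, the R-spondin receptor Lgr4 by -1.14 ± 0.16 and thrombomodulin (Thbd) by -0.87 ± 0.11, with Lgr4 and Thbd picked with their values already seen. The adjusted p was 0.0496 for Igf2bp1, Ctsk and Lgr4, 0.0106 for Cpa6 and 0.0129 for Thbd. The mutant-line levels of Sema3d and Cpa6 lay in the lowest 25% of gene means, so these differences are lower bounds. Thbd was lower in the mutant lines than in NSCs as well, by -0.86 ± 0.13 (adjusted p = 0.00207). Serpinb1a, Sema3d, Igf2bp1, Ctsk, Cpa6 and Lgr4 were not called there. In WT lines minus NSCs, the difference was 3.97 for Serpinb1a, 2.69 for Sema3d, 2.12 for Igf2bp1 and 1.58 for Lgr4. It was 1.35 for Ctsk, 1.22 for Cpa6, 0.68 for Prkar2b and 0.02 for Thbd. The adjusted p of WT lines minus NSCs was 0.966 for Thbd, 0.021 for Prkar2b and 0.00438 or less for the others. Apart from Thbd, the genes lower in mutant than in WT lines were thus raised above NSCs in the WT lines. The calls of Prkar2b and Cpa6 held without each mutant or WT line in turn. The NSC arrays of this fit were not left out. The Sema3d call ended without line 3 (-2.95) or line 31 (-2.96). The Thbd call ended without line 3 (-0.87), line 31 (-0.86) or line 119 (-0.81). The Lgr4 call ended without line 3 (-1.12), line 31 (-1.18), line 95 (-1.16), line 119 (-1.21), line 120 (-1.06) or line 123 (-1.07). The Igf2bp1 call ended without line 3 (-1.86), line 28 (-1.71), line 31 (-1.78), line 59 (-1.78), line 95 (-1.75), line 119 (-1.80) or line 331 (-1.70). The Ctsk call ended without line 3 (-1.34), line 28 (-1.33), line 31 (-1.32), line 59 (-1.30), line 95 (-1.35), line 120 (-1.35) or line 123 (-1.34). The Serpinb1a call ended without line 3 (-3.05), line 28 (-3.04), line 31 (-2.84), line 59 (-2.82), line 95 (-3.02), line 120 (-3.02), line 123 (-3.08) or line 331 (-2.52). Among all members of the 44 lists, Sema3d, Igf2bp1 and Lgr4 alone were called between mutant and WT lines.

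Sex-linked transcripts, picked with their values already seen, differed between the same groups. Xist, the RNA that silences an X chromosome in female cells, was at 5.53 in line 95 and between 11.16 and 11.97 in the other 5 mutant lines, against 5.93 to 6.24 in the 4 WT lines, and at 11.52 and 5.88 in the NSC arrays. The Y-linked gene Eif2s3y was at 7.58 in line 95 and between 4.37 and 4.60 in the other 5 mutant lines, against 5.57 to 9.96 in the WT lines, and at 8.31 and 9.34 in the NSC arrays. NSC replicate 1 had high levels of both Xist and Eif2s3y. In the comparison of mutant lines with NSCs, Eif2s3y (-3.86 ± 0.81, adjusted p = 0.0121), Kdm5d (-2.44 ± 0.45, adjusted p = 0.00607) and Uty (-2.96 ± 0.69, adjusted p = 0.0192) were called lower. If NSC replicate 1 was dropped, the calls of Eif2s3y (-4.37) and Uty (-3.25) ended. Omitting NSC replicate 2, the calls of Eif2s3y (-3.34), Kdm5d (-2.02) and Uty (-2.67) ended. Between mutant and WT lines the p53 label and the level of Xist go together except in line 95. The Y-linked genes were also low in WT line 123, with Eif2s3y at 5.57, Kdm5d at 6.54 and Uty at 5.15. The part of sex in the 8 called genes was not tested.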

How the data were processed

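Expression was measured on Affymetrix microarrays, 1 array per sample. The values deposited by the authors are log2 expression levels per probe set; RMA, GCOS and Affymetrix Expression Console are named per the submitters' processing notes, with no version or role, and the genome build is not given in the sources used here. No scanner files were used, so detection calls were not available and the number of arrays limits the precision. Of 34760 probe sets, 21640 named 1 gene, 1321 several and 11799 none in the platform annotation. Each of 19937 genes was represented by its probe set with the highest mean over all 27 arrays, which applied to 954 genes with several probe sets. The arrays do not share 1 scale: medians over probe sets were 7.02 to 7.08 on the 12 cell arrays, 5.47 to 5.57 on tumor arrays and 5.75 to 5.78 on subcutaneous tissue arrays, so tests used cell arrays only. Choosing probe sets on the 12 cell arrays changed 75 genes.

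The tests were those of limma 3.58.1 run under R 4.3.3 (lmFit and eBayes, 2-sided, Benjamini-Hochberg adjustment over all genes, threshold 0.05). The comparison of mutant lines with NSCs used the 8 arrays concerned, and those of mutant lines with WT lines and of WT lines with NSCs used all 12 cell arrays with 3 group means. Tables, counts and plots were made with Python 3.11.15, numpy 2.4.6, pandas 2.3.3 and matplotlib 3.10.9. On simulated data of 19937 genes, log2 changes of 0.5, 1 and 2 were recovered for 28.4%, 82.1% and 95.5% of changed genes in the design of mutant lines against NSCs, with 1 false call of 138. In the design of mutant against WT lines the shares were 43.3%, 88.1% and 97.0%, with 9 false calls of 161. Only 66 or 67 genes were changed at each size, so recovery on the measured arrays can differ. Measured differences between mutant and WT lines of -1.64 (Lifr) and -2.13 (Mest) were not called (limma adjusted p = 0.257 and 0.416). The shares thus do not show that few differences of such sizes exist between these lines.

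The genes named were, first, the 12 largest increases and decreases among called genes whose groups do not overlap. Up to 4 called genes per list and 13 marker and pathway genes where measured were added. The 3 widest gaps above and below per line, and up to 5 genes in each direction between mutant and WT lines, completed the choice. This gave 178 genes, and 42 more were picked with their values already seen. The members and lists were chosen with earlier results of these data known. Alternatives were the mean of probe sets, a filter on low genes, eBayes with trend and robust settings, median centring, quantile normalization and a 2-fold threshold. Others were array weights, other sets of arrays, each array of the 2 compared groups left out in turn and a replicate block. Probe sets picked on the cell arrays were an alternative chosen after seeing the data.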

Additional observations from a re-analysis of the deposited data

Results flagged for a closer look

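Of 142 named or fixed genes whose 6 mutant-line values were examined, 14 had 1 line set apart from the other 5 by more than Dixon's 95% critical value. Chance alone sets apart about 1 in 20 groups. In line 3, Gatm was at 6.28 (others 5.22 to 5.61). In line 28, Lhfpl3 was at 7.84 (others 6.98 to 7.23). In line 31, Aldoc was at 6.71 (others 6.91 to 7.02). In line 59, Rtn1 was at 6.25 (others 5.81 to 5.92), Nr2e1 was at 8.37 (others 6.59 to 6.84) and Ugt8a was at 6.20 (others 5.48 to 5.62). In line 95, Sparcl1 was at 7.0 (others 6.47 to 6.66), Fgf1 was at 7.38 (others 6.14 to 6.42), Spry4 was at 8.44 (others 6.93 to 7.43) and Igfbp4 was at 9.29 (others 7.20 to 7.38). In line 116, Fabp7 was at 9.40 (others 5.68 to 6.09), Bmpr1b was at 7.86 (others 6.02 to 6.62), E2f7 was at 9.25 (others 9.56 to 9.72) and Vim was at 13.14 (others 12.91 to 13). These values were not tested further.

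The difference between mutant and WT lines itself passed the limma test for 8 genes, given as mutant minus WT lines: Cpa6 (-1.27), Ctsk (-1.33), Igf2bp1 (-1.77), Lgr4 (-1.14), Prkar2b (1.23), Sema3d (-2.96), Serpinb1a (-2.99) and Thbd (-0.87). The 8 genes are 0.0401% of those tested.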

How the results depend on the processing

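The count of 3084 called genes between mutant lines and NSCs lay between 1374 and 3476 with 1 array left out (446 to 1575 higher, 833 to 1901 lower), and the lowest totals came without NSC replicate 1 (1374) and NSC replicate 2 (1393). With probe sets chosen on the 12 cell arrays, an alternative added after seeing the data, the counts were 3092 (1357 higher, 1735 lower) and, for mutant against WT lines, 8. A 2-fold threshold left 1259 genes (516 higher, 743 lower), and restriction to genes above the median level left 1015 lower. Fitting the replicate number as a block gave 3032 genes (1461 higher, 1571 lower). The deviations of same-numbered arrays had correlations of 0.0904 and 0.0357. With 2 NSC arrays the deviations mirror each other, so these values cannot decide whether same-numbered samples share more than a number. The 8 genes called between mutant and WT lines became 2 to 31 with 1 line left out (1 to 14 higher, 1 to 17 lower). The count was 31 without line 116 and 17 without WT line 123. The count was 4 (3 lower) with the mean of probe sets, with median centring, with quantile normalization and with the 10 lines alone, 5 (4 lower) with trend and robust settings, and 1 (0 lower) among genes above the median level; the causes were not tested. Of 220 named genes, 169 were called; 103 of these kept their call under every alternative, 108 without either NSC array and 156 without each line, and 169 kept their direction. Differences that did not pass changed sign for Gfap (-0.04 without line 59, -0.14 without NSC replicate 1), Mki67 (0.04 without line 116) and Pdgfra (-0.08 without line 95, -0.24 without NSC replicate 2). With 1 array left out, their ranges were -0.14 to 0.20 for Gfap, -0.19 to 0.04 for Mki67 and -0.24 to 1.26 for Pdgfra. Of the values for gaps between lines, 143 recomputed values stayed close and 1 did not: the gap of Loxl4 in line 116 became 1.52 with the mean of probe sets.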
